A study of Rattus norvegicus with 8 samples.

Results

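Imprinted growth-regulating genes were followed through the rat femur growth plate, the cartilage through which a long bone lengthens. Of 6 genes listed (Plagl1, Mest, Peg3, Dlk1, Cdkn1c and Grb10), 5 had a probe set that the platform annotation gives to that gene alone, and together they had 7 of the 31042 probe sets analysed. Plagl1, Mest, Dlk1 and Cdkn1c had 1 probe set each, Grb10 had 3, and Peg3 had none and is not described further. The study compared 4 zones of the plate in rats (Rattus norvegicus): perichondral, reserve, proliferative and hypertrophic. Each zone had 1 array from animals aged 42 days and 1 from animals aged 46 days, and every array held RNA pooled from 3 rats. The labels name no strain, treatment or genotype, and the sources used here do not say how the zones were dissected. The design text takes the ages as replicates, so n = 2 arrays for each zone and n = 4 for each age. A p-value between zones measures the spread between pools of different age. One between ages measures how the age difference varies over zones. The labels do not say whether the 4 zones of one age came from the same 3 rats, and if they did, the comparison of ages rests on 1 set of animals per age and its p-values are too small.

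An imprinted gene is transcribed mainly from the copy inherited from one parent, and many imprinted genes set the rate of growth before and after birth. Genes expressed from the father's copy, such as Plagl1, Mest, Peg3 and Dlk1, tend to favour growth, while Cdkn1c and, in most tissues, Grb10 are expressed from the mother's copy and restrain it. Plagl1 encodes a zinc finger transcription factor that can halt the cell cycle and that acts on other imprinted genes, Cdkn1c encodes the cyclin-dependent kinase inhibitor p57, and Grb10 encodes an adaptor that dampens signalling from the insulin and insulin-like growth factor receptors. Dlk1 encodes a membrane protein related to the Notch ligands that holds back fat cell differentiation, and Mest encodes a protein of the hydrolase fold family. In growth plate cartilage p57 is known for its part in the exit of chondrocytes from the cell cycle before they enlarge. These arrays measure the sum of both parental copies and carry no information on which copy was transcribed.

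Imprinted control often acts at promoters rich in CpG, the dinucleotide that carries DNA methylation. The sequence before the transcription start is shown for the genes that had both a probe set and an entry in the RefSeq promoter table. Of the 6 genes 5 matched that table, which uses the GRCr8 build and holds 1 start per gene, and Cdkn1c did not. Each line gives the 250 bases before that start, 5′ to 3′ on the strand of the gene, with every CpG in capitals.
Plagl1: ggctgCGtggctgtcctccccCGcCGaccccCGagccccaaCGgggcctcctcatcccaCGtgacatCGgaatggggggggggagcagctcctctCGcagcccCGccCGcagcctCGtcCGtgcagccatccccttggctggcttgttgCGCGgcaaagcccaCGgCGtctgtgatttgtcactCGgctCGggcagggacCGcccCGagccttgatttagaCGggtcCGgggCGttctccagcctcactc
Grb10: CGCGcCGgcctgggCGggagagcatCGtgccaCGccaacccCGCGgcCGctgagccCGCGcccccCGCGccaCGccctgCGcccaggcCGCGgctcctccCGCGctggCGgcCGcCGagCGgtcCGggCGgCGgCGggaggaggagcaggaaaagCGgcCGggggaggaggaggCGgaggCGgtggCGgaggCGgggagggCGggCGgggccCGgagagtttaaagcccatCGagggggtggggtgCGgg
Dlk1: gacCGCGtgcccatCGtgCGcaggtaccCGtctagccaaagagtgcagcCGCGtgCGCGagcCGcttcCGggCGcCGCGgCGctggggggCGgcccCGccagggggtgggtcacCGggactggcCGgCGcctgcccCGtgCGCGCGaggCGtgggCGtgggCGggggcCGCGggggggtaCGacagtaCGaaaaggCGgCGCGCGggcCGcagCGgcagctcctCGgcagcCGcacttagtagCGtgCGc
Mest: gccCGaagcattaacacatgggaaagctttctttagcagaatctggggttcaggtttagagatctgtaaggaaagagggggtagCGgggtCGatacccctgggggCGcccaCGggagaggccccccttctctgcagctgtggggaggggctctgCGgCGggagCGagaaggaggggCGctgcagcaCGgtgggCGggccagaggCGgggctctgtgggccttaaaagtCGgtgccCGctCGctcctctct
The Plagl1 window lies at chr1:9297214-9297463 (plus strand), that of Grb10 at chr14:90816388-90816637 (minus strand), that of Dlk1 at chr6:134192347-134192596 (plus strand) and that of Mest at chr4:60321564-60321813 (plus strand). CpG occurred 23 times before Plagl1, 38 times before Grb10, 41 times before Dlk1 and 15 times before Mest, against a median of 5 over 33465 rat promoters of the same length. As many or more CpGs were found in 12.31% of all these promoters for Plagl1, 1.69% for Grb10, 0.98% for Dlk1 and 25.82% for Mest. The motif GGGCGG, searched on both strands, occurred 2 times before Plagl1, 4 times before Grb10, 2 times before Dlk1 and 1 time before Mest, and 30.5% of all promoters held it. The motif TATAAA, likewise searched on both strands, was in none of the 4 windows and in 12.9% of all promoters. These matches describe letters in a window, and methylation was not measured in this study. Whether the windows hold the elements that control imprinting is not known here.

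Signals are given as log2(intensity + 16) after quantile normalization between arrays, on which the median of all probe sets is 8.25. As a yardstick for background, the 0.95 quantile of 29 measured genes typical of other organs was 9.44 and is called the other-organ level. Probe sets differ in how strongly they bind, so the level of one gene is not set against that of another. Of 13 measured chondrocyte markers, from 8 to 13 were above the other-organ level in each array, among them Col2a1, the main collagen of cartilage. All 4 zones thus carried cartilage genes, and markers of other cells varied between arrays. In the reserve arrays 5 of 7 osteoclast and 6 of 10 leukocyte and marrow markers were above that level at each age. The 42-day hypertrophic array had 2 of 7 and 7 of 10, and the 46-day one 1 of 7 and 0 of 10. Perichondral and proliferative arrays had 0 of 7 and at most 2 of 10. Over the brightest 10% of probe sets, the correlation across genes was 0.53 to 0.785 within a zone and 0.312 to 0.804 between zones (genes are not independent replicates).

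Plagl1 and Cdkn1c were bright in all 4 zones and had lower signals at 46 than at 42 days in each of them, the clearest pattern among these genes. The deposited Plagl1 intensity was 25480, 16000, 20190 and 21330 at 42 days in perichondral, reserve, proliferative and hypertrophic arrays, and 5455, 4777, 3300 and 1397 at 46 days in the same order. On the normalized log2 scale Plagl1 read 14.11, 13.52, 14.01 and 14.33 at 42 days against 12.48, 12.16, 12.15 and 10.51 at 46 days. All 4 older arrays lay below all 4 younger ones, and the 46-day hypertrophic array was the lowest. The mean was 13.99 ± 0.34 (SD, n = 4) at 42 days and 11.83 ± 0.89 at 46 days, a log2 difference of -2.16 (SE 0.40, 95% interval -2.99 to -1.34), or 4.48-fold on the log2(intensity + 16) scale.

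Cdkn1c followed the same course. Its deposited intensity was 33810, 20730, 14780 and 18900 at 42 days in perichondral, reserve, proliferative and hypertrophic arrays, and 8468, 5216, 4590 and 865.4 at 46 days. The normalized values were 14.52, 14.02, 13.61 and 14.19 at 42 days and 13.07, 12.31, 12.76 and 9.73 at 46 days. Again the ages did not overlap, and the 46-day hypertrophic array stood lowest, just above the other-organ level. The means were 14.09 ± 0.38 (SD, n = 4) and 11.97 ± 1.52, which gave a log2 difference of -2.12 (SE 0.46, 95% interval -3.08 to -1.16), or 4.34-fold.

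With limma, zone as a covariate and Benjamini-Hochberg adjustment over all 31042 probe sets, these differences missed the threshold of an adjusted p below 0.05 (adjusted p = 0.0823 for Plagl1, ranked 10 by p, and 0.124 for Cdkn1c, ranked 47). No probe set passed in this comparison (0%), while 2616 had an unadjusted p under 0.05 (8.43%). In the direction of a lower signal at 46 days, an unadjusted p under 0.05 was reached by 4.38% of all probe sets and by 10.2% of the brightest 10%, and among the imprinted genes by Plagl1 and Cdkn1c. With limma the unadjusted p was 2.89e-05 for Plagl1 and 0.000189 for Cdkn1c. The 4 older arrays lay wholly below the 4 younger ones in 1.45% of all probe sets and 1.10% of the brightest 10%, and in 2 of the 7 followed here. An exact two-sided sign-flip test over the 4 zones gave p = 0.125 for Plagl1 and for Cdkn1c, which is the smallest p that 4 zones allow.

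These calls depended on the scaling between arrays. Without further normalization the Plagl1 difference was -2.62 (adjusted p = 0.0166, limma) and the Cdkn1c difference -2.52 (adjusted p = 0.0252, limma). With each array centred on its median they were -2.86 (adjusted p = 0.00475, limma) and -2.77 (adjusted p = 0.00577, limma). The median difference of all probe sets was 0.03 after quantile normalization, 0.16 as deposited and -0.08 after centring, and that of the brightest 10% was 0.14, -0.07 and -0.32. Measured from that last median, Plagl1 stood at -2.30, -2.55 and -2.55 and Cdkn1c at -2.26, -2.45 and -2.45 in the same order. In the fits as deposited and after centring, the calls were 2 higher and 43 lower, and 3 higher and 137 lower, at 46 days.

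**Figure D1:**
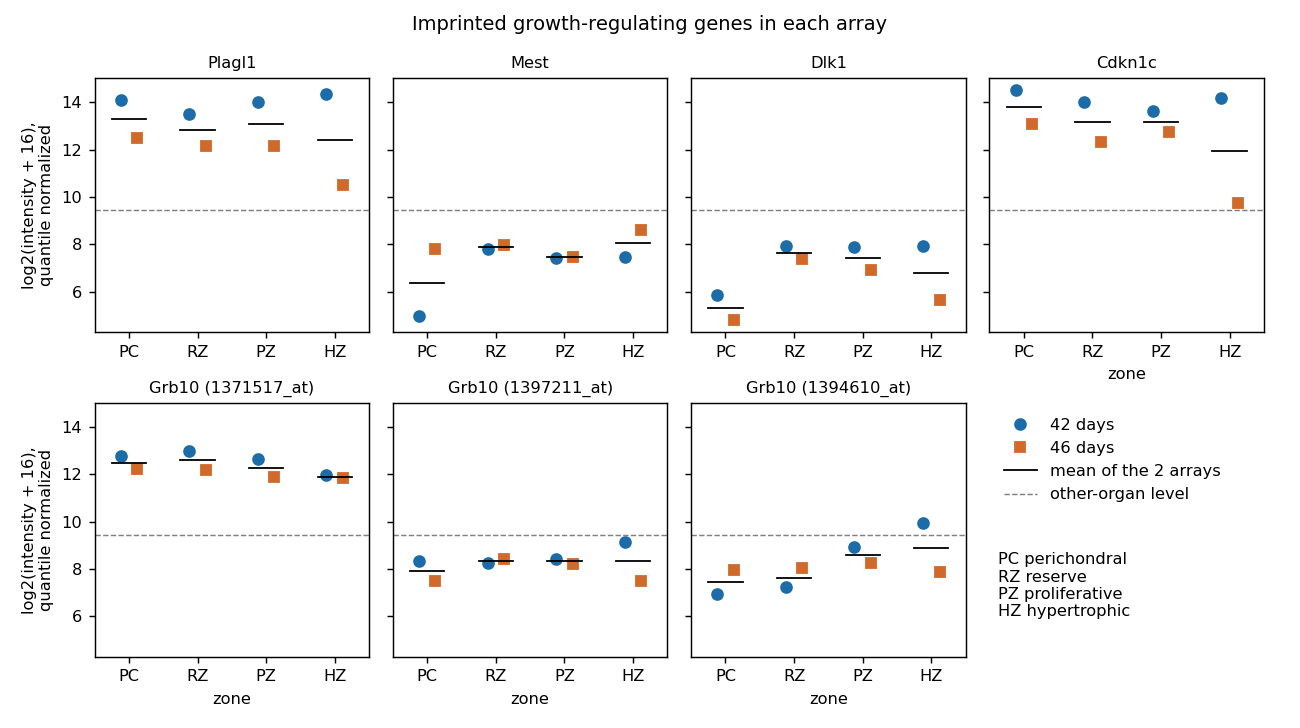
Normalized log2(intensity + 16) of the 7 probe sets (vertical axes) in each zone (horizontal axes), with circles for 42 days, squares for 46 days, a bar for the mean of the 2 arrays and a dashed line for the other-organ level of 9.44. Plagl1, Cdkn1c and the first Grb10 probe set lie above that line in every array, and the 46-day squares of Plagl1 and Cdkn1c lie below all of their 42-day circles.

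The size of the age difference varied between zones. For Plagl1 the log2 difference between 46 and 42 days was -1.63 (perichondral), -1.36 (reserve), -1.86 (proliferative) and -3.81 (hypertrophic). For Cdkn1c it was -1.45, -1.70, -0.86 and -4.46 in the same order. The hypertrophic zone thus had the largest difference for both genes. It rests on 1 array per age, and whether it differed from the other zones was not tested. Over the other 3 zones the mean difference was -1.61 ± 0.25 (SD, n = 3) for Plagl1 and -1.34 ± 0.43 for Cdkn1c. Without the 46-day hypertrophic array the fitted differences had those same values, with an adjusted p of 0.335 and 0.511 (limma). The zone values of the 5% of probe sets with the strongest decreases began at -2.59, -2.44, -2.78 and -2.87 in that order. Only the hypertrophic values of Plagl1 and Cdkn1c were below these limits. Among the brightest 10% of probe sets, to which both genes belong, the limits were -1.27, -1.25, -2.30 and -2.45, and both genes were below them in perichondral, reserve and hypertrophic arrays but not in proliferative ones.

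**Figure D2:**
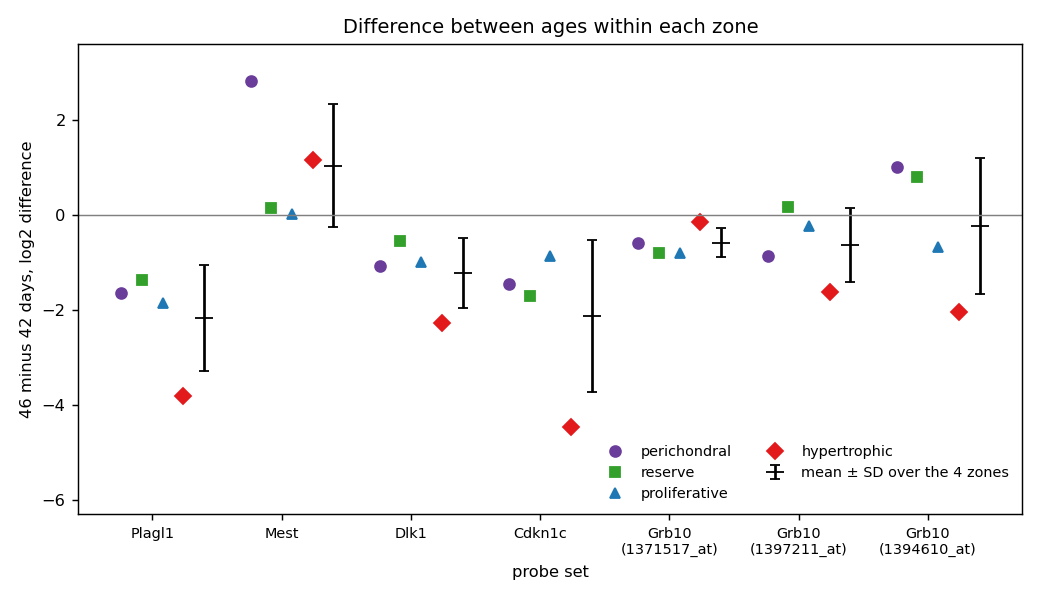
Log2 difference between 46 and 42 days (vertical axis) within each zone for each of the 7 probe sets (horizontal axis), with 1 symbol per zone and a black bar for the mean ± SD over the 4 zones. Plagl1, Cdkn1c, Dlk1 and the first Grb10 probe set are below 0 in all 4 zones, and the hypertrophic values of Plagl1 (-3.81) and Cdkn1c (-4.46) are the lowest.

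Measures of tissue makeup and of RNA quality moved between the ages as well. All 13 measured chondrocyte markers had a negative fitted difference, with a median of -1.05 against 0.03 over all probe sets, and 10 of the 13 were lower at 46 days in all 4 zones. None passed the threshold. In the same zone order their median was -0.76, -1.60, -0.84 and -1.28. The lowest fitted value was that of Col9a1, a chain of the collagen that coats cartilage fibrils (-1.77, SE 0.37), and Col2a1 was at -0.47 (SE 0.52). The summed deposited intensity of these markers ran from 427100 to 784700 in 42-day arrays and from 87620 to 472000 in 46-day arrays, lowest in the 46-day hypertrophic one. The fitted Plagl1 and Cdkn1c differences over all 4 zones were more negative than that of each marker. That order rests on the hypertrophic zone, where Plagl1 was at -3.81 and Cdkn1c at -4.46. Without that zone they averaged -1.61 and -1.34, and Snorc averaged lower than both. The order did not hold in each zone either. Snorc was at -2.90, -2.05, -0.60 and -1.46 in perichondral, reserve, proliferative and hypertrophic arrays, below both genes in the perichondral and reserve zones only. Col9a2 (-1.83) was also below both in perichondral arrays. In reserve arrays Col11a2 (-2.99), Chad (-2.24), Acan (-2.09), Ucma (-1.84) and Col9a2 (-1.71) were below both as well. In proliferative arrays no marker was below Plagl1. Col9a3 (-1.50), Ucma (-1.29), Col9a1 (-1.10), Col11a2 (-1.05) and Hapln1 (-0.88) were below Cdkn1c (-0.86) there. In hypertrophic arrays both genes were below each marker.

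Leukocyte and marrow markers had a median age difference of -0.78 (8 of 10 negative), and their summed intensity ran from 1956 to 44870 at 42 days and from 1824 to 40950 at 46 days. In the hypertrophic zone alone this sum was 21820 at 42 days and 1824 at 46 days, with 7 and 0 of the 10 markers above the other-organ level. Summed intensities of other lists were also lower in the 46-day than in the 42-day hypertrophic array, at 12630 against 281300 for osteoblast and bone markers, 41960 against 204100 for hypertrophic chondrocyte markers and 2992 against 11710 for erythroid markers. Over all zones the fitted age differences of these lists had medians of -0.11 (5 of 8 negative), -0.76 (6 of 7) and -0.43 (5 of 7). Gapdh control probe sets, which report RNA quality through their 3' to 5' ratio, gave 4.47, 8.15, 7.10 and 4.30 at 42 days in perichondral, reserve, proliferative and hypertrophic arrays, and 3.78, 3.96, 5.39 and 3.63 at 46 days. This ratio was lower at 46 days in all 4 zones. The Hexokinase control did not share that direction throughout, since its ratio was 1.82, 2.38, 1.02 and 1.10 at 42 days and 0.703, 0.541, 2.47 and 0.424 at 46 days in that zone order, higher at 46 days in proliferative arrays. The part of these measures in the Plagl1 and Cdkn1c differences was not tested. In pooled tissue, fewer cells of a type and less RNA per cell cannot be told apart.

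**Figure D3:**
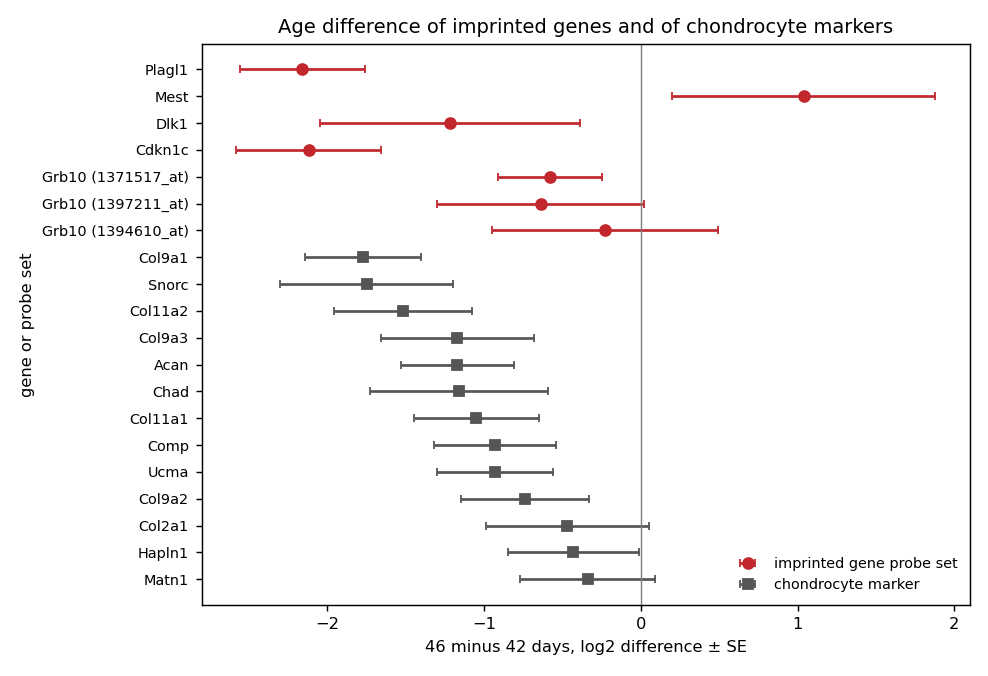
Fitted log2 difference between 46 and 42 days with its SE (horizontal axis) for the 7 imprinted gene probe sets (circles) and the 13 chondrocyte markers (squares). All markers have estimates below 0, from -1.77 to -0.34. Plagl1 (-2.16) and Cdkn1c (-2.12) lie beyond them in these fits. They do not lie beyond all of them in every single zone, nor on average without the hypertrophic zone.

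Grb10 gave a firm signal with 1 of its 3 probe sets. The probe set 1371517_at read 12.79, 12.99, 12.67 and 11.97 at 42 days and 12.21, 12.19, 11.88 and 11.83 at 46 days in perichondral, reserve, proliferative and hypertrophic arrays, above the other-organ level throughout. Every zone was lower at 46 days, by -0.58, -0.80, -0.79 and -0.15 in that order, as were 7.73% of all probe sets and 9.63% of the brightest 10%. The fitted difference was -0.58 (SE 0.33, 95% interval from -1.27 to 0.11, adjusted p = 0.669 with limma). Values of the ages overlapped, since the 42-day hypertrophic array lay below the 46-day perichondral and reserve arrays.

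The other Grb10 probe sets stayed at or below the other-organ level except in 1 array and did not follow the first. Probe set 1397211_at ran from 7.49 to 9.13, with an age difference of -0.64 (SE 0.66, adjusted p = 0.839 with limma). Probe set 1394610_at read 6.95, 7.23, 8.93 and 9.93 at 42 days and 7.96, 8.03, 8.26 and 7.88 at 46 days in the same zone order, with an age difference of -0.23 (SE 0.72, adjusted p = 0.963 with limma). Its sign turned without either hypertrophic array (0.38). The 42-day hypertrophic array was its highest and the only one above the other-organ level. The part of the transcript that each probe set reads is not known here.

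Dlk1 and Mest were below the other-organ level in all 8 arrays, so their differences rest on dim values. Dlk1 read 5.85, 7.92, 7.90 and 7.91 at 42 days and 4.78, 7.36, 6.93 and 5.63 at 46 days in perichondral, reserve, proliferative and hypertrophic arrays. It was lower at 46 days in 4 of 4 zones, with a fitted difference of -1.22 (SE 0.83, adjusted p = 0.727 with limma). Mest read 4.96, 7.81, 7.43 and 7.46 at 42 days and 7.79, 7.95, 7.46 and 8.61 at 46 days. Its older arrays were higher in 4 of 4 zones, as in 8.58% of all probe sets, though by only 0.15 in reserve and 0.03 in proliferative arrays. The fitted Mest difference was 1.04 (SE 0.84, adjusted p = 0.767 with limma).

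**Figure D4:**
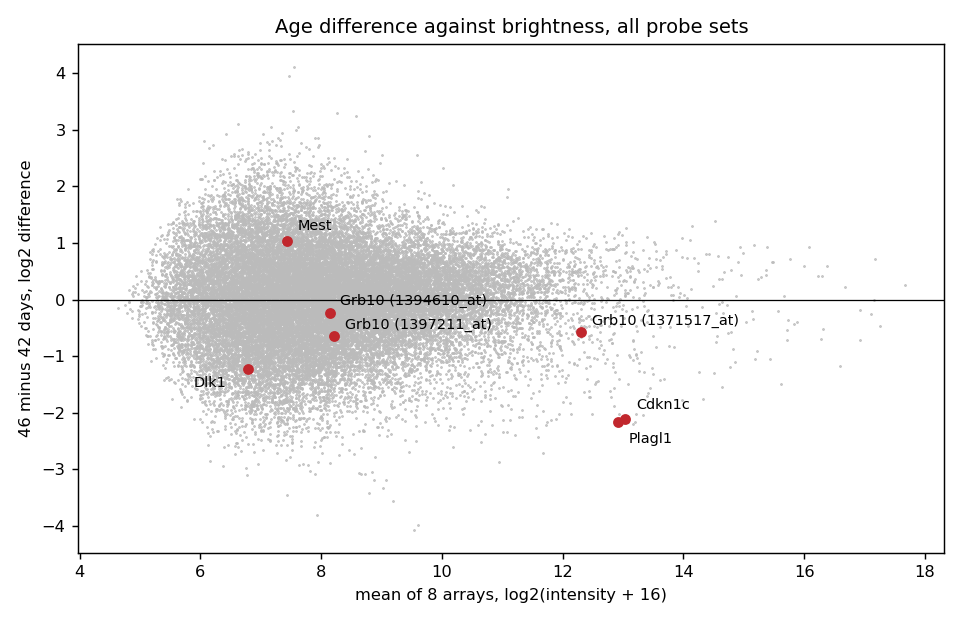
Fitted log2 difference between 46 and 42 days (vertical axis) against the mean log2(intensity + 16) of the 8 arrays (horizontal axis) for all 31042 probe sets (grey), with the 7 imprinted gene probe sets in red. Plagl1 and Cdkn1c lie at -2.16 and -2.12 among bright probe sets, and the quartiles of the brightest 10% were -0.32 and 0.50.

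Between zones, differences in these genes did not exceed the spread between pools of different age. In 42 comparisons (7 probe sets in 6 pairs of zones) 0 passed the threshold with limma, and 0 had an unadjusted p under 0.05. Over all probe sets, those past the threshold were 0% for perichondral against reserve and against proliferative, 0.0290% for perichondral against hypertrophic, 0.0226% for reserve against proliferative and for reserve against hypertrophic, and 0.0129% for proliferative against hypertrophic. An unadjusted p under 0.05 was found for 3.75%, 5%, 6.17%, 7.64%, 8.10% and 5.52% of them in these pairs. A moderated F test over the 4 zones called 0 of the 7 (adjusted p from 0.877 to 0.991, limma) and 0.0387% of all probe sets, with an unadjusted p under 0.05 for 6.20% of them and for 0 of the 7.

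The order of the zone means differed from gene to gene. Plagl1 averaged 13.29 ± 1.15 (SD, n = 2) in perichondral, 13.08 ± 1.31 in proliferative, 12.84 ± 0.96 in reserve and 12.42 ± 2.70 in hypertrophic arrays. Every neighbour in that order differed by less than its SD, which here holds the difference between the ages. Cdkn1c averaged 13.79 ± 1.02 in perichondral, 13.18 ± 0.61 in proliferative, 13.17 ± 1.20 in reserve and 11.96 ± 3.15 in hypertrophic arrays. The low hypertrophic means and their wide SDs come from the 46-day array, since at 42 days the hypertrophic array had the highest Plagl1 value of the 4 zones and the second highest Cdkn1c value.

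Cdkn1c was 1.83 (SE 1.04, 95% interval -0.36 to 4.02, adjusted p = 0.845 with limma) higher in perichondral than in hypertrophic arrays, 1.20 (SE 1.04) higher in reserve and 1.22 (SE 1.04) higher in proliferative arrays. Without the 46-day hypertrophic array these 3 differences turned to -0.40, -1.03 and -1.01. Plagl1 was 0.87 (SE 0.99, 95% interval -1.21 to 2.96) higher in perichondral than in hypertrophic arrays and turned to -1.03 without that array. In the same pair of zones all 13 chondrocyte markers were higher in perichondral arrays, with a median of 1.21 and 1 past the threshold, and their part in these differences was not tested. The direction of both genes between the hypertrophic and other zones thus depended on 1 array.

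Grb10 by probe set 1371517_at averaged 12.59 ± 0.57 (SD, n = 2) in reserve, 12.50 ± 0.41 in perichondral, 12.28 ± 0.56 in proliferative and 11.90 ± 0.10 in hypertrophic arrays. Both reserve and both perichondral arrays lay above both hypertrophic ones, pairs that separated in either direction in 38.9% and 34.9% of all probe sets. The Grb10 differences were 0.69 (SE 0.57, 95% interval -0.51 to 1.88) and 0.60 (SE 0.57, 95% interval -0.60 to 1.79). These intervals include 0, and the adjusted p was 0.788 and 0.905 (limma). Probe set 1394610_at ran the other way, with 7.45 ± 0.72 in perichondral and 8.91 ± 1.45 in hypertrophic arrays (-1.45, SE 1, adjusted p = 0.879 with limma). That difference was -0.43 without the 42-day and -2.48 without the 46-day hypertrophic array, and -0.95 without the 42-day perichondral one.

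The dimmest zone for Dlk1 was the perichondral one. Its mean there was 5.31 ± 0.76 (SD, n = 2), against 7.64 ± 0.39 in reserve, 7.41 ± 0.69 in proliferative and 6.77 ± 1.61 in the hypertrophic zone. Both perichondral arrays lay below both reserve and both proliferative arrays, pairs that separated in either direction in 34.7% and 34.2% of all probe sets. The differences were -2.33 (SE 1.19, 95% interval -4.85 to 0.20, adjusted p = 1 with limma) and -2.10 (SE 1.19, 95% interval -4.63 to 0.42, adjusted p = 0.963 with limma), and -1.46 (SE 1.19) against hypertrophic arrays. This last value was -0.32 without the 42-day and -2.59 without the 46-day hypertrophic array, and -0.92 without the 46-day perichondral one. Markers of other cell types also had negative perichondral minus reserve differences. Their medians were -2.03 for leukocytes and marrow (9 of 10 negative), -2.68 for osteoclasts (7 of 7) and -2.25 for erythroid cells (6 of 7). Against proliferative arrays these medians were 0.37 (5 of 10 negative), 1.13 (1 of 7) and -0.55 (5 of 7). The part of these markers in the Dlk1 differences was not tested. Mest was lowest in the perichondral zone too, at 6.37 ± 2.00 against 7.88 ± 0.10 in reserve, 7.45 ± 0.02 in proliferative and 8.04 ± 0.81 in the hypertrophic zone. That mean rests on the 42-day perichondral array, and the difference from reserve arrays was -1.51 (SE 1.20) with it and -0.09 without it. Against hypertrophic arrays Mest differed by -1.66 (SE 1.20), and by -0.25 without it.

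Arrays of a pair of zones did not overlap in 9 of the 42 comparisons. By pair these were 2 of 7 probe sets for perichondral against reserve (34.7% of all probe sets), 2 of 7 for perichondral against proliferative (34.2%), 1 of 7 for perichondral against hypertrophic (34.9%), 2 of 7 for reserve against proliferative (39.7%), 1 of 7 for reserve against hypertrophic (38.9%) and 1 of 7 for proliferative against hypertrophic (31.4%). Separation of arrays was therefore no more frequent in these genes than across the array.

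**Figure D5:**
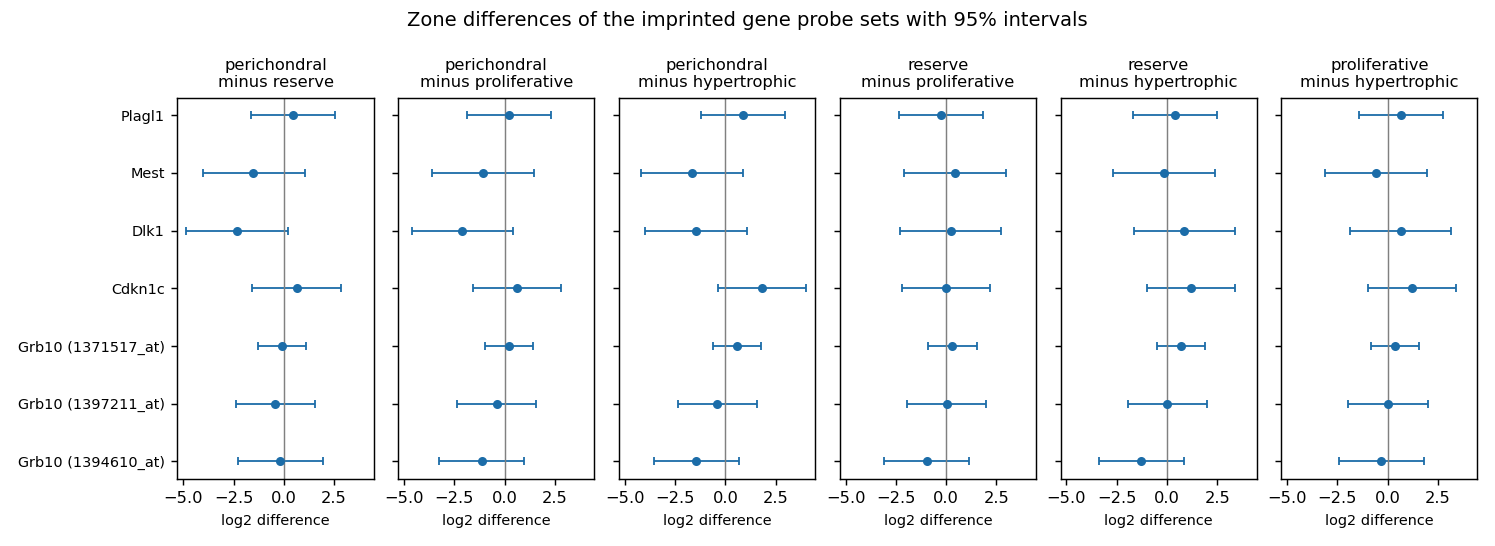
Log2 difference between the zones of each of the 6 pairs (horizontal axes) for the 7 probe sets (vertical axis), with 95% intervals from limma. Each of the 42 intervals includes 0, and those of the first Grb10 probe set are the narrowest.

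Plagl1 and Cdkn1c resembled each other over the 8 arrays. Among 6552 other genes with a mean above the median of all probe sets, 4 had a higher Pearson correlation with Plagl1 than the 0.946 of Cdkn1c, and 13 had a higher one with Cdkn1c than Plagl1 had. The genes most like Plagl1 were Fbrsl1 (r = 0.983), Sun1 (r = 0.971) and Cstb (r = 0.95), and those most like Cdkn1c were Zwint (r = 0.98), Atp8b2 (r = 0.975) and Ybx2 (r = 0.966). For Grb10 by its bright probe set they were Zfp617 (r = 0.955), Pgam1 (r = 0.943) and Pkig (r = 0.94), while Plagl1 and Cdkn1c stood at 0.619 and 0.631. These values describe 8 arrays that fall into 2 ages, and the low 46-day hypertrophic array carries weight in those of Plagl1 and Cdkn1c.

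Of other imprinted genes 38 of 47 listed were measured, and 0 passed the threshold in either direction in each of the 6 zone pairs and between ages. Their median age difference was -0.01 (20 negative, 18 positive), against 0.03 over all probe sets. The largest with a level above the other-organ level was that of H19, a growth-restraining noncoding RNA made from the mother's copy. It was at -2.22 (SE 0.52, adjusted p = 0.194 with limma, lower in 4 of 4 zones). Pon3, an antioxidant lactonase, was at -1.40 (SE 0.54), the membrane tetraspanin Cd81 at -1.36 (SE 0.41) and the sarcoglycan Sgce at -0.87 (SE 0.52).

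H19 also had the largest difference between perichondral and hypertrophic arrays among the genes of this list above the other-organ level. It read 15.49 and 12.94 in perichondral, 15.91 and 10.97 in reserve, 11.29 and 10.45 in proliferative and 8.66 and 8.11 in the hypertrophic zone at 42 and 46 days. Both hypertrophic arrays were below the other-organ level and below all other arrays. The difference between perichondral and hypertrophic arrays was 5.83 (SE 1.11, adjusted p = 0.126 with limma), and it passed with age as a replicate block (adjusted p = 0.000844), in a fit to those 2 zones alone (adjusted p = 0.0184), and with either reserve array left out (adjusted p = 0.0243 without the younger and 0.0242 without the older). It did not pass with each of the other 6 arrays left out (adjusted p from 0.114 to 0.999), nor as deposited (0.148), with median-centred arrays (0.378), with a pseudocount of 1 (0.189) or 64 (0.119), with the filter on dim probe sets (0.372) or without the variance trend (0.649). Over the 8 arrays left out in turn the difference ran from 4.55 to 7.11. In the same pair of zones the imprinted list had a median of 0.16 (24 positive, 14 negative). Next in size were the lipid transfer protein Osbpl5 (1.79, SE 1.14), the homeobox factor Dlx5 (-0.92, SE 0.61) and the deubiquitinase gene Usp29 (-0.89, SE 0.66).

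Genes that work beside these proteins gave 0 calls in either direction between ages or zones. Among 18 cell cycle inhibitors, cyclins and kinases around Cdkn1c, the median age difference was 0.01, with 9 on each side. The largest with a level above the other-organ level were those of the pocket protein Rbl2 (-1.12, SE 0.49), the D-type cyclin gene Ccnd1 (0.90, SE 0.52), the phosphatase Cdkn3 (-0.55, SE 0.43) and the D-type cyclin gene Ccnd2 (0.53, SE 0.40). Among 20 measured genes of insulin and insulin-like growth factor signalling around Grb10, the median was 0.37 (15 positive, 5 negative), with Nedd4, a ubiquitin ligase (-1.23, SE 0.42), the adaptor Shc1 (-0.70, SE 0.39), the transcription factor Foxo3 (0.59, SE 0.37) and the receptor Igf1r (0.49, SE 0.41).

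Among 20 Notch genes around Dlk1 the median was -0.07, with 10 on each side, and the largest with a level above the other-organ level were those of the ligand Jag1 (0.52, SE 0.37), the receptor Notch1 (-0.43, SE 0.45), the transcription factor Rbpj (0.12, SE 0.42) and the target gene Hey2 (0.07, SE 0.43). Rbpj and Hey2 turned to -0.13 and -0.23 with median-centred arrays. Of 11 measured genes tied to Plagl1, a list that holds Cdkn1c, Dlk1 and H19 too, 7 were negative with a median of -1.22. That median is the value of Dlk1 itself, a dim gene already described, so it does not describe other genes alone. Also negative were the protease inhibitor Timp2 (-2.08, SE 0.58), the bone collagen gene Col1a1 (-2.04, SE 0.52), and the microfibrillar collagen Col6a3 (-1.51, SE 0.51). Of 10 measured partners of Peg3 and Mest, 7 were positive with a median of 0.40, and the 2 above the other-organ level were Ctnnb1, the Wnt pathway's beta-catenin (-0.71, SE 0.45), and the fat cell hormone Adipoq (0.29, SE 0.41).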

How the data were processed

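RNA from 4 growth plate zones at 2 ages was hybridised to 8 Affymetrix arrays, 1 per zone and age. The deposited values are linear intensities for 31099 probe sets, and MAS5, GCOS and RMA appear in the submitters' processing notes with no version or role. Trimmed by a share of 0.02, each array had a mean intensity of 500.08 to 500.16, with medians from 226.6 to 348.9.

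After removal of 57 control probe sets, 31042 remained and were taken as log2(intensity + 16), where the 16 understates differences of dim genes. They were quantile normalized with limma 3.58.1 in R 4.3.3. The platform annotation gives 1 symbol for 20826 of them, several for 436 (not used for names) and none for 9780. Zones were compared in one limma fit with a mean per zone (4 residual and 12.58 prior degrees of freedom, with a variance trend), and ages with zone as a covariate (3 and 15.8). Adjusted p-values are Benjamini-Hochberg over all probe sets, with a threshold of 0.05. The number of arrays limits the precision. The test was checked on simulated data.

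Lists used the probe set with the highest mean per gene. Each list was described by its genes past the threshold or, without any, by up to 4 of the largest differences with the higher group above the other-organ level. For each bright gene the 3 genes with the highest Pearson correlation over 8 arrays were named. Col2a1 and Col9a1 were chosen after their values were seen. Genes and lists were chosen with earlier results of these data known. Alternatives were other scalings, pseudocounts, a filter on dim probe sets, an age block, no variance trend, fits to 2 zones and each array left out.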

Additional observations from a re-analysis of the deposited data

Results flagged for a closer look

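In the set of 4 arrays of one age, a single array stood far from the others for 3 genes. The limit used is one that about 1 of 20 such sets would pass if values were normally distributed. Each of the 7 probe sets has such a set at both ages, and the share of all probe sets past the limit was not counted. Mest and Dlk1 were below the other-organ level in every array. Plagl1 in the 46-day hypertrophic array was at 10.51 (log2), with the other 46-day arrays between 12.15 and 12.48. Mest in the 42-day perichondral array was at 4.96, with the others between 7.43 and 7.81. Dlk1 in that same 42-day perichondral array was at 5.85, with the others between 7.90 and 7.92.

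The difference between 46 and 42 days had opposite signs in different zones for both dim Grb10 probe sets. Probe set 1397211_at was at 0.16 in reserve and -1.62 in hypertrophic arrays. Probe set 1394610_at was at 1.01 in perichondral and -2.05 in hypertrophic arrays. With 1 array per zone and age, these contrasts between zones were not tested.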

How the results depend on the processing

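Between ages, 0 of the 7 probe sets passed after quantile normalization, and 2 passed both as deposited and after centring on array medians (Plagl1 and Cdkn1c), while over all probe sets the calls went from 0 to 45 and 140, and to 5 with a pseudocount of 64 or without either reserve array. With a pseudocount of 1 or 64, the dim-probe filter, no variance trend or any array left out, 0 of those tested passed; the filter left 5 of the 7 in the test. Over the arrays left out, the age difference ran from -2.43 to -1.61 for Plagl1, from -2.54 to -1.34 for Cdkn1c and from -0.64 to 0.38 for Grb10 probe set 1394610_at. Between zones, 0 of the 7 passed in each setting run. With each array left out, Cdkn1c ran from -0.40 to 4.06 between perichondral and hypertrophic arrays, from -1.03 to 3.43 between reserve and hypertrophic and from -1.01 to 3.45 between proliferative and hypertrophic, and Plagl1 from -1.03 to 2.78 between perichondral and hypertrophic.

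Age as a replicate block left 0 of the 7 called between zones, with 96 probe sets in the F test against 12 without it. In the order perichondral against reserve, proliferative and hypertrophic, then reserve against proliferative and hypertrophic, then proliferative against hypertrophic, it gave 3, 13, 55, 60, 38 and 11 calls against 0, 0, 9, 7, 7 and 4. Age differences correlated between zones with r from 0.0225 to 0.0806 across all probe sets and from 0.0683 to 0.421 across the brightest 10%, where 4 of 6 pairs of zones were at 0.211 or above, so whether arrays of one age are paired was not settled. Median-centred arrays gave 0, 0, 1, 8, 1 and 0 calls, the dim-probe filter 0, 0, 2, 3, 2 and 0, no variance trend 0 in each pair, and fits to 2 zones 9, 0, 11, 27, 0 and 1. Between ages, median-centred arrays turned Rbpj to -0.13 and Hey2 to -0.23, and with each array left out they ran from -0.06 to 0.31 and from -0.37 to 0.30. H19 and Col1a1 also passed between ages after centring (-2.62 and -2.60). The cause of these changes was not tested.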

Other observations

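Cdkn1b, which encodes p27, the relative of p57 among the kinase inhibitors, was singled out after its values were seen. It read 12.69, 12.90, 12.90 and 13.31 at 42 days and 13.61, 14.09, 12.41 and 11.54 at 46 days in perichondral, reserve, proliferative and hypertrophic arrays on the log2 scale. It was higher at 46 days in 2 zones and lower in 2, with an age difference of -0.04 (SE 0.43, adjusted p = 0.99 with limma). Cdkn1c was lower at 46 days in 4 of 4 zones, and the difference between both genes was not tested.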
